A study of Mus musculus with 12 samples.

Results

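Genes whose products bring synaptic vesicles to the presynaptic membrane and fuse them with it were examined in the hippocampus of mice in which TIF-IA is deleted by a Cre recombinase under the Camk2a promoter. The members were all probes whose platform symbol belongs to the synaptotagmins (Syt), synaptotagmin-like proteins (Sytl), syntaxins (Stx), syntaxin-binding proteins (Stxbp), vesicle-associated membrane proteins (Vamp), complexins (Cplx) or Rims family, or is Syn1, Syn2, Syn3, Syp, Snap25, Snap29, Snap47 or Unc13a. This rule, which uses no measured value, gave 127 probes of 64 genes among 45135 probes and 19031 named genes.

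The 6 mutants were TIF-IA flox/flox; CaMKCreERT2 mice and the 5 controls were littermates without Cre. The methods give the controls as TIF-IA flox/flox, and the labels give them as wildtype. All were C57Bl/6N mice that received tamoxifen at 2 months of age, and hippocampal RNA was taken 4 weeks later. The Camk2a promoter is known for its activity in excitatory forebrain neurons, and the tissue also holds interneurons, glia and vessels, whose RNA was measured along with that of these neurons. Each animal was profiled on an Illumina whole-genome BeadChip, and mutant 6 on 2 arrays, which were averaged.

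In a nerve terminal, a vesicle is held near the membrane by synapsins and active-zone scaffolds such as Rims proteins, and is primed by Unc13 proteins and syntaxin-binding proteins. The vesicle protein Vamp2 and the membrane proteins syntaxin and Snap25 then zip into a SNARE complex that pulls both membranes together. Complexins hold this complex in check until a synaptotagmin binds calcium and triggers fusion. Other syntaxins and Vamps serve traffic between the Golgi apparatus, endosomes and lysosomes in most cells.

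Values are log2 signals after background correction and quantile normalization, differences are mutant minus control on that scale, and p-values are from limma over the 11 animals with Benjamini-Hochberg adjustment over all probes. A probe was counted as detected in an animal when its signal exceeded the array's background at a detection p-value under 0.01. The arrays had median raw intensities of 83.1 to 107.5 and 19193 to 21889 detected probes each. Rrn3, which encodes TIF-IA, had control values of 8.33, 8.34, 8.21, 8.31 and 8.51 and mutant values from 7.67 over a median of 7.81 to 7.95. The genotypes did not overlap, and the difference of -0.55 (standard error 0.07) had an unadjusted p of 6.7e-06, an adjusted p of 0.151 and an exact permutation p of 0.00433, the smallest that reassigning the animals allows. The position of this probe relative to the deleted exon is not given in the sources used here, and a second Rrn3 probe was detected in no animal.

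No fusion gene differed between the genotypes once p-values were adjusted over all probes. Differences were positive for 64 member probes and negative for 63, with a median of 0.0018, against a median of 0.0001 and 49.9% negative over all probes. Detected in at least 5 animals were 72 member probes of 46 genes (56.7%, against 45.7% of all probes), while 27 were detected in 1 to 4 animals and 28 in none. Among the 72, 36 were positive and 36 negative, with a median of -0.0029. The plot of differences by family shows this balance and the few probes that lay farthest from 0.

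**Figure D1:**
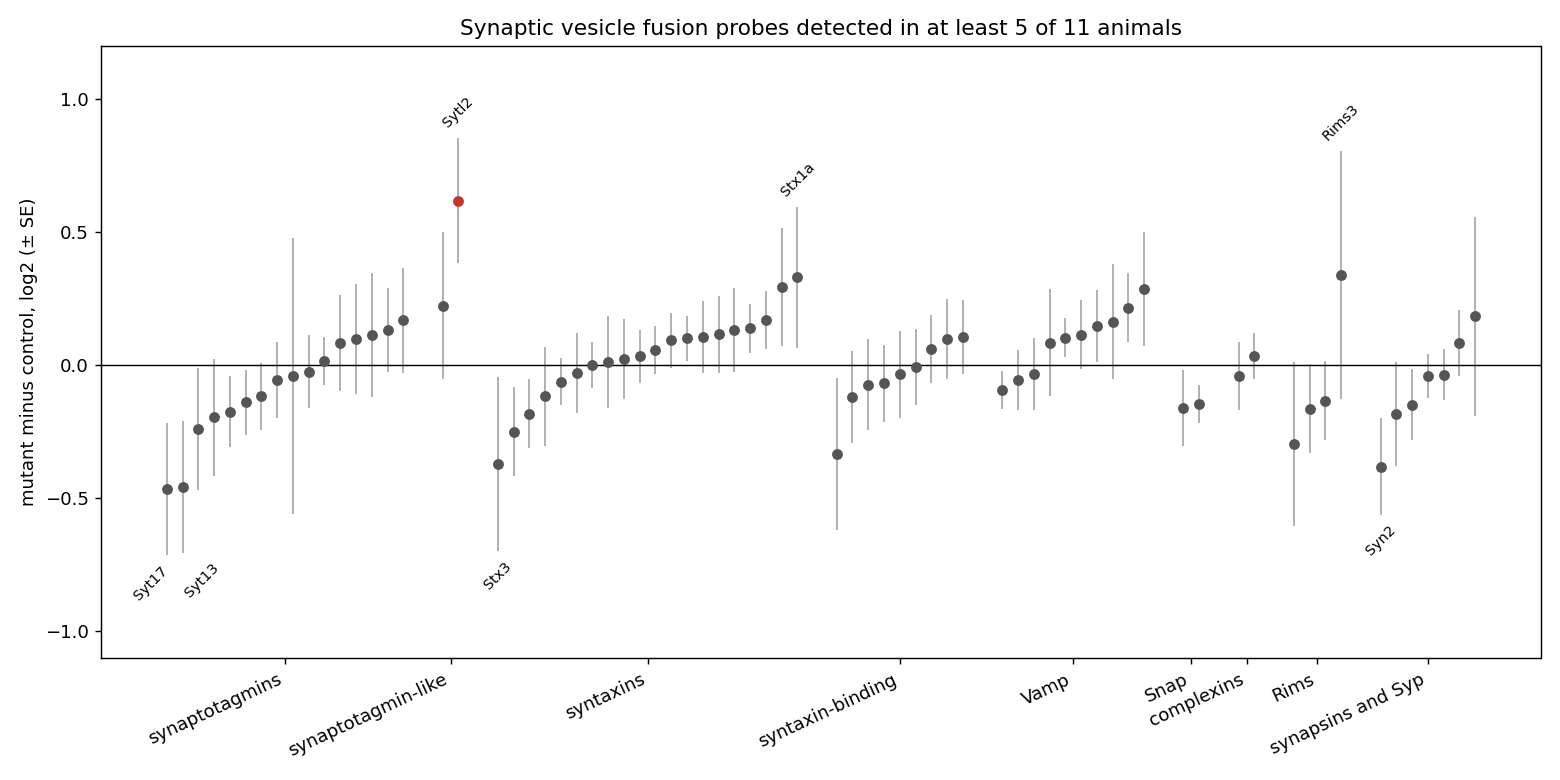
Mutant minus control difference (log2 scale, vertical axis) of each of the 72 member probes detected in at least 5 animals, grouped by family on the horizontal axis and sorted within it; points are limma estimates and bars are ± 1 standard error. The differences run from -0.47 (Syt17) to 0.62 (Sytl2, red, the probe at an unadjusted p under 0.05), with 36 on either side of 0.

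By limma, 3 of the 127 member probes had an unadjusted p under 0.05, against 3.95% of all probes. All 3 were higher in the mutants, where 1.94% of all probes were called, and 0 were lower, where 2.01% were called. No member probe (0) had an unadjusted p under 0.001, the level used in the study and reached by 0.082% of all probes, and none (0) passed an adjusted p under 0.05, which 0.00222% passed; the lowest adjusted p of a member was 0.996. For no member probe (0) were all mutants above or all below all controls, a separation found in 0.332% of all probes. The count of 3 became 6 without mutant 1, where 4.43% of all probes were called, and 6 without mutant 3 (4.44%). It was 9 without control 4 (4.69%) and 2 to 4 without any other animal (3.47% to 4.63%).

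The size of difference that these animals could miss was set by the spread. Over the 72 detected member probes the 95% interval of the difference had a median half-width of 0.32. For 65 of them the whole interval lay within 1 log2 unit of 0, and for 46 it lay within 0.5. The spread between animals (median SD 0.25) was close to that of all detected probes (0.28), and it exceeded the difference between both arrays of mutant 6 for 55 of the 72.

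Sytl2 was the detected member with the largest difference. It encodes a synaptotagmin-like protein that binds Rab27 and the plasma membrane and is best known from secretory cells. Its brightest probe (ILMN_3127335), detected in all 11 animals, read 9.55, 9.51, 9.50, 9.65 and 9.09 in the controls and ran from 9.30 over a median of 10.21 to 10.84 in the mutants. Mutants 2, 3, 4 and 6 lay above every control, mutant 5 lay level with the highest control and mutant 1 lay below all controls but control 5. The difference was 0.62 (standard error 0.23, 95% interval 0.10 to 1.14), a fold of 1.54, with an unadjusted p of 0.0230, an adjusted p of 0.996 and an exact permutation p of 0.0519.

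Animals numbered in the 200s (3 mutants and 4 controls) and in the 300s (3 mutants and 1 control) form separate series in the labels. Since the 300s hold a single control, their differences are given without a test. Within the 200s the Sytl2 difference was 0.36 (standard error 0.23, unadjusted p = 0.157), and within the 300s it was 1.16. With the series as a block it was 0.60 (unadjusted p = 0.0414), and without control 5 it was 0.53 (unadjusted p = 0.0600). The other 3 Sytl2 probes were detected in 4 animals or fewer and differed by -0.08, 0.08 and 0.05. Sytl4, a relative from the same family, differed by 0.22 (standard error 0.28), and the probes of Sytl3 and Sytl5 were detected in at most 2 animals each.

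The other probes at an unadjusted p under 0.05 were close to background. Syn3, which encodes synapsin III, known from developing neurons, has 7 probes, and 6 of them were positive. The probe ILMN_2993083 read 4.24, 4.29, 4.16, 4.28 and 4.31 in the controls, in none of which it was detected, and 4.23 to 5.22 with a median of 4.60 in the mutants, of which 2 passed detection. The difference was 0.38 (standard error 0.14, unadjusted p = 0.0189, exact permutation p = 0.0216). Against controls raised to the lowest detected signal the fold was 1.14. This is no strict bound, because most mutants were undetected too. Within the 200s the difference was 0.45 (unadjusted p = 0.0688) and within the 300s 0.27. The 2 arrays of mutant 6 differed by 0.64 at this probe, and with the first of them alone the difference was 0.32 (unadjusted p = 0.0527). The Syn3 probe detected most widely, ILMN_1223010, in 10 animals, differed by 0.18 (standard error 0.37), with control 1 at 4.53 and every other animal from 5.93 to 7.01.

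Stxbp3 encodes Munc18c, the partner of syntaxin 4 in regulated exocytosis outside synapses. The probe ILMN_2715195 was detected in 1 mutant and in no control, and read 4.12, 4.52, 4.35, 4.42 and 4.20 in the controls and 4.34 to 4.82 with a median of 4.57 in the mutants. Its difference was 0.25 (standard error 0.11, unadjusted p = 0.0455, exact permutation p = 0.0693). Against controls raised to the lowest detected signal the fold was 1.08, again no strict bound, because most mutants were undetected. The unadjusted p rose above 0.05 without control 1, 3 or 5 or mutant 2, 4 or 5, where it was 0.114 at most and the difference 0.20 to 0.25. The difference was 0.16 within the 200s (unadjusted p = 0.265), 0.42 within the 300s and 0.24 with the series as a block (unadjusted p = 0.0720). The second Stxbp3 probe, detected in all 11 animals, had the opposite sign (-0.33, standard error 0.28, unadjusted p = 0.266).

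Of the 3 genes at an unadjusted p under 0.05, only Stxbp3 was in the RefSeq promoter table, so its promoter is shown. It holds a full cAMP response element, the site bound by CREB. The window covers 250 bases before and 50 after the transcription start, on the minus strand at chr3:108840453-108840752 (GRCm38.p6). Capitals mark the cAMP response element TGACGTCA and the GC box GGGCGG, each searched on both strands.
Stxbp3 promoter: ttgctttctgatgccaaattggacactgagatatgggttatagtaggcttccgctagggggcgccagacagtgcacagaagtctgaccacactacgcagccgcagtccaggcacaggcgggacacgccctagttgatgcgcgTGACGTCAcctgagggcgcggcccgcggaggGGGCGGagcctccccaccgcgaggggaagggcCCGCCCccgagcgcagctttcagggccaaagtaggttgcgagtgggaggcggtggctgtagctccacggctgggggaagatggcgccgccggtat
The cAMP response element occurs once, at bases 143 to 150 of the window, and the GC box at 2 places. Of 32851 mouse promoters of the same length, 1.79% held a full cAMP response element, 35.7% a GC box and 1.63% a CArG box, of which the Stxbp3 window held none. These matches describe the sequence and no binding was measured.

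The synaptotagmins, the calcium sensors of release, numbered 17 genes and 28 probes, of which 16 probes of 11 genes were detected. Of the detected probes 6 were positive and 10 negative (median -0.05), and 0 had an unadjusted p under 0.05. Syt1, the main sensor of fast release in the forebrain, read 14.27, 14.24, 14.17, 14.13 and 14.03 in the controls and 13.97 to 14.42 with a median of 14.18 in the mutants. The control range lay within the mutant range, and the difference was 0.02 (standard error 0.09, 95% interval -0.18 to 0.21). The other Syt1 probes differed by 0.11 and -0.12. Syt7, a high-affinity sensor linked to slow release, differed by -0.02 (95% interval -0.33 to 0.28), and Syt2, the fast sensor of the brainstem, was detected in no animal.

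The lowest differences of the family were those of a pair of atypical synaptotagmins. Syt17 read 5.86, 5.53, 5.79, 4.85 and 5.62 in the controls and 4.49 to 5.78 with a median of 5.01 in the mutants, a difference of -0.47 (standard error 0.25, unadjusted p = 0.0862, exact permutation p = 0.130). Syt13 read 8.75, 8.86, 8.50, 8.18 and 9.17 in the controls and 7.53 to 8.71 with a median of 8.44 in the mutants, a difference of -0.46 (standard error 0.25, unadjusted p = 0.0931, exact permutation p = 0.147). In both, mutants 2 and 4 were the lowest animals and control 4 was the lowest control. Without control 4 the differences were -0.64 for Syt17 (unadjusted p = 0.0199) and -0.58 for Syt13 (unadjusted p = 0.0434), and Syt17 was also at an unadjusted p under 0.05 without mutant 1. The smallest differences were -0.35 for Syt17 (without mutant 4) and -0.31 for Syt13 (without mutant 2).

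**Figure D2:**
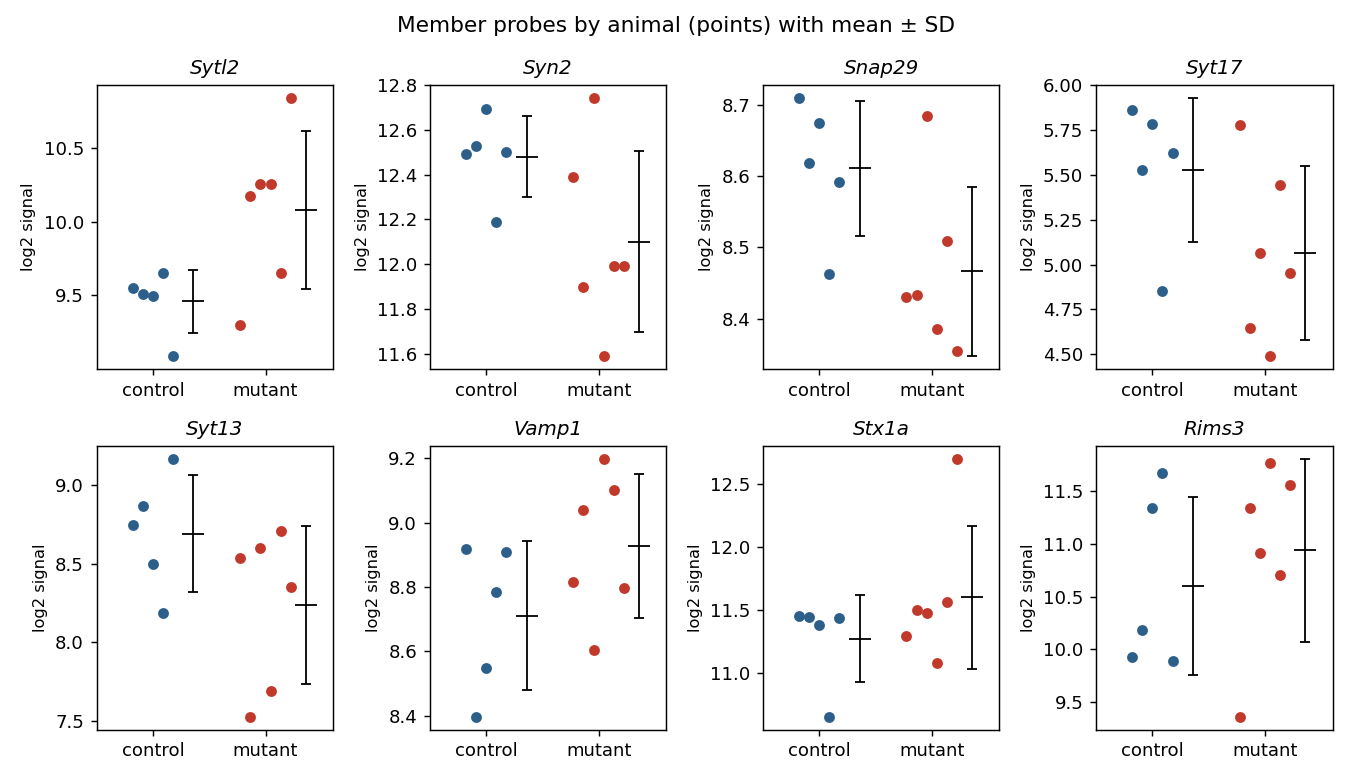
Log2 signal (vertical axis) of 8 member probes in each of the 5 controls (blue) and 6 mutants (red); bars beside the points are the mean ± SD over animals, and each panel has its own scale. Sytl2 runs from 9.09 to 9.65 in controls and from 9.30 to 10.84 in mutants, and in every panel the genotypes overlap.

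The vesicle SNAREs showed mostly small positive differences. Of 15 Vamp probes, 10 of 6 genes were detected, 7 positive and 3 negative, with a median of 0.11. Vamp2, the vesicle SNARE of most forebrain synapses, read 12.81, 12.81, 12.82, 12.72 and 12.95 in the controls and 12.56 to 12.88 with a median of 12.69 in the mutants. It had the smallest spread of all detected members (SD 0.11), and its difference was -0.09 (standard error 0.07, 95% interval -0.25 to 0.06). Vamp1, its relative of the brainstem and spinal cord, read 8.92, 8.40, 8.55, 8.78 and 8.91 in the controls and 8.60 to 9.20 with a median of 8.93 in the mutants, a difference of 0.22 (standard error 0.13, unadjusted p = 0.124). Leaving out 1 animal gave 0.14 (without control 2, unadjusted p = 0.302) to 0.28 (without mutant 3, unadjusted p = 0.0467). A second Vamp1 probe differed by 0.12 and varied with the first over the 11 animals (r = 0.88, a description of 2 probes of 1 gene). Vamp4, of the trans-Golgi network, differed by 0.10 (standard error 0.07) at its brightest probe and by -0.06 (standard error 0.11) at another detected one. The Vamp3 probes also held both signs, at -0.03 and 0.15. The probe of Vamp8, an endosomal Vamp, that lay farthest from 0 differed by 0.29 (standard error 0.21).

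Among the target-membrane SNAREs, the 29 syntaxin probes included 20 detected ones of 11 genes, 14 positive and 6 negative (median 0.05). Stx1a, the syntaxin of the presynaptic membrane, read 11.45, 11.44, 11.38, 10.65 and 11.43 in the controls and 11.08 to 12.70 with a median of 11.49 in the mutants. Control 4 was the lowest and mutant 6 the highest animal. The difference was 0.33 (standard error 0.27, unadjusted p = 0.238), and 0.11 without mutant 6. Stx3, a syntaxin of dendrites and of ribbon synapses, differed by -0.37 (standard error 0.33) at its most variable probe and by 0.01 at another detected probe. The endosomal syntaxins Stx7 and Stx8 differed by 0.14 (standard error 0.09) and 0.17 (standard error 0.11). For Stx7, leaving out 1 animal gave 0.09 (without control 4, unadjusted p = 0.348) to 0.20 (without control 1, unadjusted p = 0.0452).

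Neither Snap25 probe was detected in any animal, although Snap25 is abundant in brain, so these probes gave no measure of the gene. Snap29, a widely expressed SNARE of autophagosomes and endosomes, read 8.71, 8.62, 8.67, 8.46 and 8.59 in the controls and 8.36 to 8.68 with a median of 8.43 in the mutants. All mutants but mutants 3 and 5 lay below the lowest control, and the difference of -0.14 (standard error 0.07, 95% interval -0.30 to 0.01) had an unadjusted p of 0.0667 and an exact permutation p of 0.0649. Without mutant 3, without control 4 and with no background correction its unadjusted p was under 0.05, and the difference over all single-animal omissions was -0.19 to -0.12. Snap47 differed by -0.16 (standard error 0.14).

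Among the regulators of the SNARE complex, the detected complexins differed by -0.04 and 0.03 and the detected syntaxin-binding probes by -0.33 to 0.11. Cplx1, the complexin of inhibitory and hindbrain neurons, read 14.15, 13.81, 14.01, 14.30 and 13.98 in the controls and 13.89 to 14.16 with a median of 14.12 in the mutants, a difference of 0.03 (standard error 0.09). Cplx2, the complexin of excitatory forebrain neurons, differed by -0.04 (95% interval -0.32 to 0.24). Cplx3 and Cplx4, known from the retina, were detected in 2 animals and 1 animal. Of 14 syntaxin-binding probes 9 were detected, 3 positive and 6 negative (median -0.03). Stxbp5l, which encodes tomosyn-2, an inhibitor of SNARE assembly, differed by -0.23 (standard error 0.15) at a probe detected in 4 animals. For this probe, leaving out 1 animal gave -0.33 (without mutant 1, unadjusted p = 0.0210) to -0.17 (without control 5, unadjusted p = 0.315). The other Stxbp5l probes, detected in every animal, held both signs, at 0.11 (standard error 0.14) and -0.12 (standard error 0.17, the brightest).

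**Figure D3:**
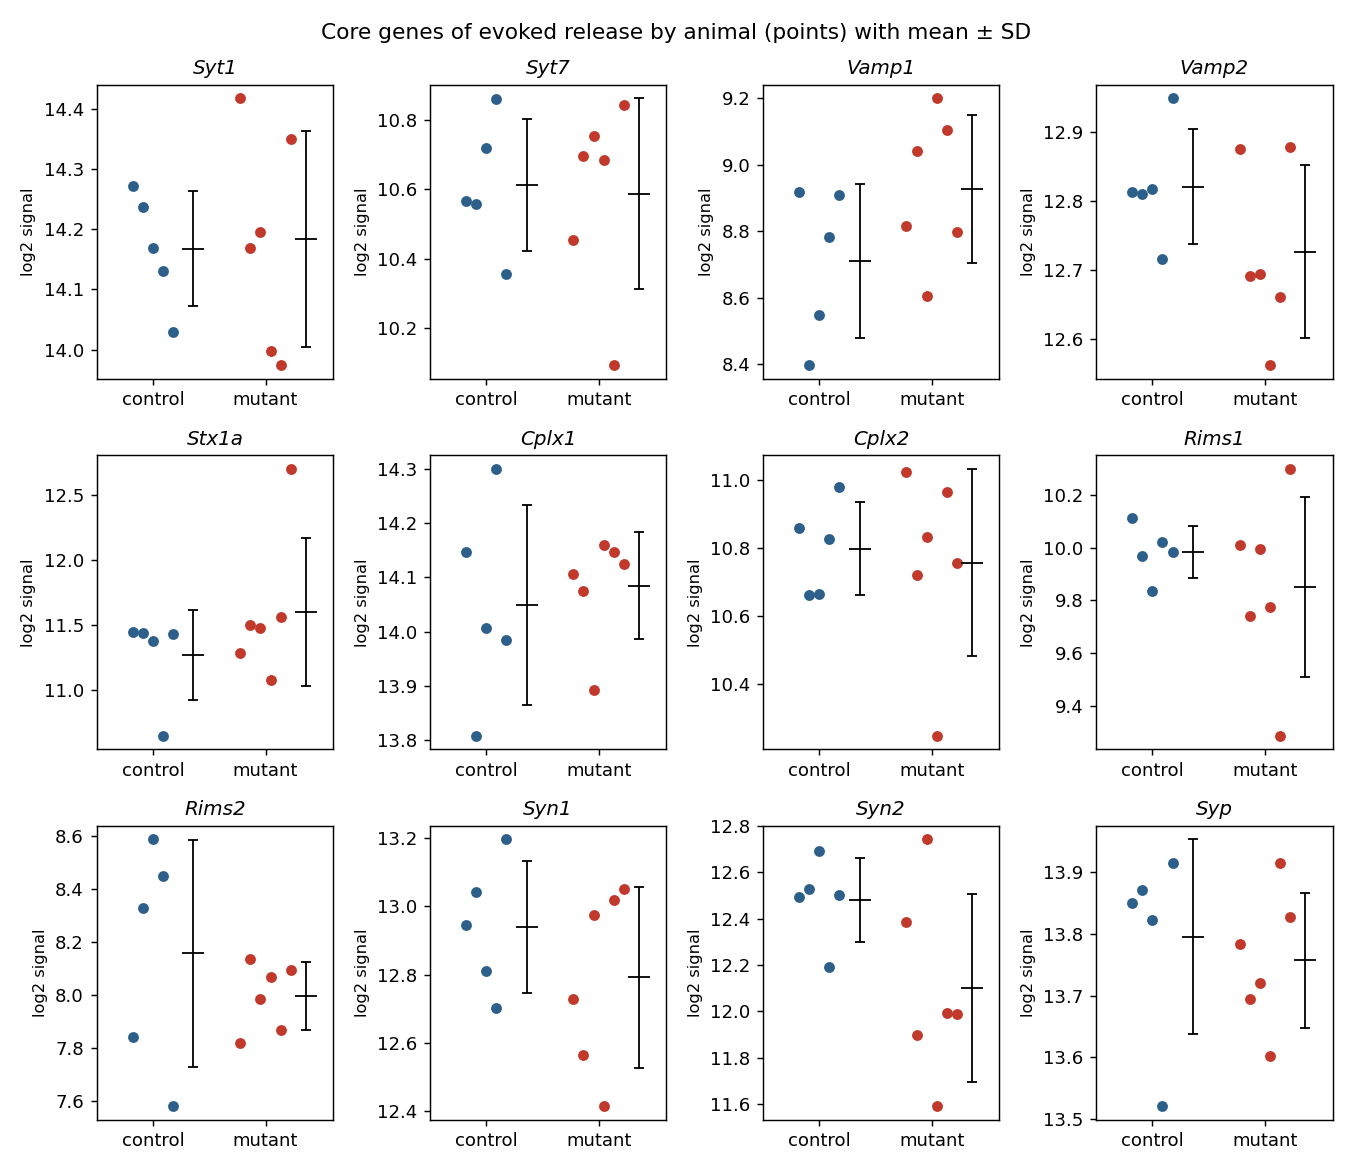
Log2 signal (vertical axis) of the brightest probe of the 12 core genes of evoked release for which it was detected in at least 5 animals, in each control (blue) and mutant (red), with the mean ± SD over animals beside the points; each panel has its own scale. In all 12 the genotypes overlap, with differences from -0.38 (Syn2) to 0.33 (Stx1a).

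At the active zone, Rims1 differed by -0.13 (standard error 0.15) at its brightest probe and by -0.30 (standard error 0.31) at another, and Rims2 by -0.16 (standard error 0.17). Within the 300s, against control 5 alone, Rims2 had the opposite sign (0.43). Leaving out 1 animal gave -0.31 (without control 5, unadjusted p = 0.0456) to -0.06 (without control 3, unadjusted p = 0.736). The Unc13a probes were detected in 4 animals and in none, so priming factor Munc13-1 was not well measured. Rims3, a short Rims protein without the vesicle-binding part, differed by 0.34 (standard error 0.47, 95% interval -0.69 to 1.36).

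The synapsins and synaptophysin, which coat or span the vesicle, gave 7 detected probes, 2 positive and 5 negative (median -0.04). Syn2, which ties vesicles of the reserve pool to actin, read 12.49, 12.53, 12.69, 12.19 and 12.50 in the controls and 11.59 to 12.74 with a median of 11.99 in the mutants. Mutants 2, 4, 5 and 6 lay below every control, mutant 3 lay above every control, and mutant 1 lay among them. The difference was -0.38 (standard error 0.18, 95% interval -0.78 to 0.02, unadjusted p = 0.0596, exact permutation p = 0.0866). It was -0.13 within the 200s (unadjusted p = 0.547) and -0.64 within the 300s. Leaving out 1 animal gave -0.51 (without mutant 3) to -0.28 (without mutant 4), with an unadjusted p under 0.05 without mutant 1, mutant 3 or control 4, and it was also under 0.05 with a variance trend (0.0378). A second Syn2 probe differed by -0.18 (standard error 0.19). Syn1 differed by -0.15 (standard error 0.13), and Syp by -0.04 (95% interval -0.22 to 0.14), with control 4 the lowest animal at 13.52.

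Probes of the same gene gave unequal answers. Among 21 genes with at least 2 detected probes there were 34 pairs, of which 19 had the same sign of the difference. Their correlations over the 11 animals ran from -0.32 (Stx5a) to 0.88 (Vamp1) with a median of 0.41. The 5 detected Stx8 probes held both signs, from -0.18 to 0.17. The Syt1 probes correlated at 0.51 to 0.79 while their signs differed.

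The members with the largest spread over animals were Syt9 (SD 0.90), Rims3 (0.83), Syn3 at ILMN_1223010 (0.66), Stx3 (0.60) and Rims1 at ILMN_3082271 (0.55). Syt9, a calcium sensor related to Syt1 and Syt2, read 6.52, 6.29, 7.57, 8.92 and 6.38 in the controls and 6.00 to 8.33 with a median of 7.06 in the mutants. The difference was -0.04 (standard error 0.52), and both genotypes held high and low animals. Control 4, mutant 4, control 3 and mutant 2 were the highest animals, at 8.92, 8.33, 7.57 and 7.46.

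The mean of markers of the neighbouring thalamus was highest in the same 4 animals. Of 10 thalamus markers 7 were detected in at least 5 animals, and 1 was detected in none. Their mean, centred on each marker's average, was 1.79 in control 4, 1.38 in mutant 4, 1.11 in mutant 2 and 0.66 in control 3, and -1.05 to -0.35 in the other 7 animals. Because the animals fell into separate clusters, no correlation is given. Slc17a6, the vesicular glutamate transporter of the thalamus, ran from 7.72 (control 5) to 12.03 (control 4). Calb2, also part of the mean, did not follow this order. It was highest in mutant 5 (12.22) and control 5 (12.08), with control 4 at 10.91 and mutant 2 at 10.93. Striatum markers (6 of 8 detected) ran from -1.80 to 2.56 and were also highest in control 4, control 3 and mutant 4.

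Rims3 was likewise high in these animals, at 11.66, 11.76, 11.34 and 11.34, and also in mutant 6 at 11.55, whose thalamus mean was -0.65. Syt13 and Syp ran the other way. Syt13 was lowest in mutant 2 (7.53), mutant 4 (7.69) and control 4 (8.18), and Syp in control 4 (13.52), mutant 4 (13.60) and mutant 2 (13.69). These 4 panels were chosen after their values were seen.

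**Figure D4:**
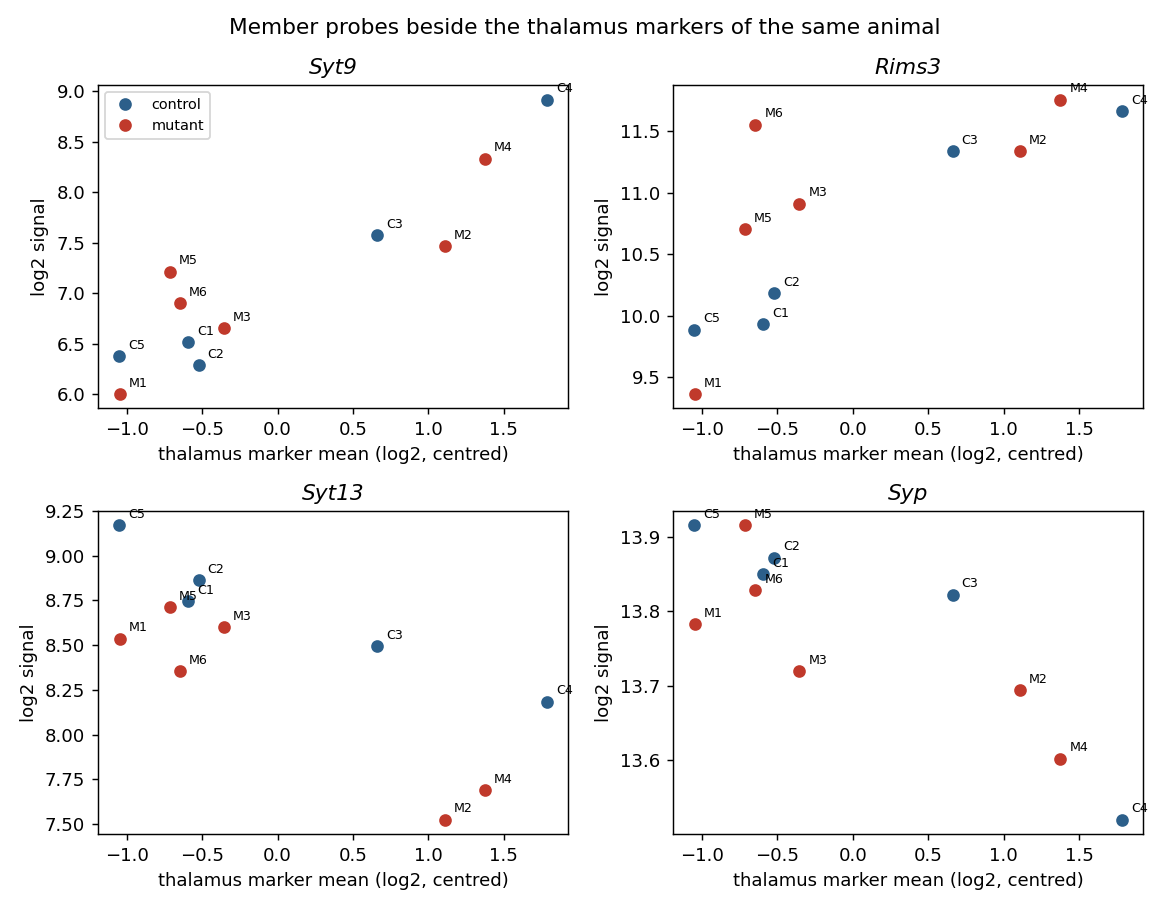
Log2 signal of Syt9, Rims3, Syt13 and Syp (vertical axes) against the mean of 7 thalamus markers of the same animal (horizontal axis, log2, centred); C1 to C5 are controls and M1 to M6 mutants. Control 4, mutant 4, mutant 2 and control 3 form a separate group on the right, at 0.66 to 1.79, and have Syt9 values of 7.46 or more.

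The thalamus mean differed between the genotypes by -0.10 (exact permutation p = 0.883). With this mean as a covariate, 6 member probes had an unadjusted p under 0.05, against 4.99% of all probes in that fit. They were the 3 named above, Syn2 (-0.40, unadjusted p = 0.0317), Syt17 (-0.50, unadjusted p = 0.00922) and Syt13 (-0.50, standard error 0.11, unadjusted p = 0.000855, adjusted p = 0.805). Syt13 was then the only member at an unadjusted p under 0.001 (1 probe). The share of all probes at that level in this fit is not given here, so the count is not read as a result. The Syt13 difference moved little with the covariate, from -0.46 to -0.50, while its standard error fell from 0.25 to 0.11.

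Other cell markers also varied between animals. Dentate gyrus markers (5 of 7 detected) ran from -1.32 to 0.41 in mutants and -0.27 to 0.98 in controls, a difference of -0.65 (exact permutation p = 0.113), and were lowest in mutants 6 and 4. CA1 markers (5 of 6 detected) differed by -0.41 (exact permutation p = 0.182) and general neuronal markers (8 of 10 detected) by -0.06 (exact permutation p = 0.143). In bulk tissue, fewer cells of a type and less RNA per cell cannot be told apart. Choroid plexus markers (8 of 10 detected) ran from -1.90 to 2.14 and differed by 0.78 (exact permutation p = 0.472). The lists of striatum, CA3 and CA2, oligodendrocytes, GABAergic interneurons, astrocytes and microglia differed by -0.28 to 0.22, with exact permutation p-values of 0.0693 or more. The part of these markers in the differences of single members was not tested.

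Mutant 4 had the lowest value of 14 and the highest of 8 of the 72 detected member probes, and the lowest median deviation over them (-0.11). Mutant 1 was the highest animal in 12. Control 4 had a median deviation of -0.08, and the other 9 animals lay between -0.02 and 0.07.

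The other steps of the vesicle cycle were followed on lists of genes at their brightest probe. Of 29 genes of priming, docking and the active zone, 0 were higher and 1 was lower at an unadjusted p under 0.05 (median -0.05), against 1.94% and 2.01% of all probes. This was Ppfia4, a liprin of the active zone, near background at 2 detected animals of each genotype (-0.26, standard error 0.09, unadjusted p = 0.0163). Doc2b, a calcium sensor of spontaneous release, read 9.46, 9.56, 9.54, 9.05 and 9.31 in the controls and 7.84 to 9.42 with a median of 8.92 in the mutants (-0.53, standard error 0.24, unadjusted p = 0.0515), with mutant 6 the lowest. Its unadjusted p was under 0.05 without mutant 3 or 5 or control 4, with differences down to -0.64, and the difference was -0.33 without mutant 6. It was also under 0.05 with the deposited values, no background correction, cyclic loess, the detection filter, the second array of mutant 6 alone or a variance trend (0.0314 to 0.0496), so the count of lower genes in this list depended on the processing. Rab27b was detected in no animal.

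Of 16 measured genes of the vesicle membrane and of transmitter loading, 1 was higher and 0 were lower at that level (median 0.01), against the same shares of all probes. Sv2a, a transporter-like vesicle protein, read 12.36, 12.48, 12.40, 11.90 and 12.42 in the controls and 12.35 to 12.96 with a median of 12.62 in the mutants. Mutant 5 lay below 4 of the 5 controls and the other mutants above all of them, and the difference was 0.35 (standard error 0.13, unadjusted p = 0.0209, adjusted p = 0.996, exact permutation p = 0.0216). It was 0.31 within the 200s (unadjusted p = 0.0684) and 0.31 within the 300s, and 0.25 without control 4 (unadjusted p = 0.0513). Its relative Sv2b differed by -0.41 (standard error 0.22, unadjusted p = 0.0859), and Sv2c, detected in 3 animals, by -0.26 (standard error 0.17). Leaving out 1 animal gave -0.49 (without mutant 3, unadjusted p = 0.0466) to -0.22 (without mutant 4, unadjusted p above 0.05) for Sv2b and -0.36 (without control 2, unadjusted p = 0.0487) to -0.13 (without control 3, unadjusted p = 0.395) for Sv2c. Of 23 measured genes of vesicle endocytosis none (0 higher, 0 lower) had an unadjusted p under 0.05, with 7 positive and 16 negative (median -0.07). The 3 of smallest p were the chaperone Hspa8 (0.11), the clathrin adaptor Snap91 (-0.30) and the clathrin heavy chain Cltc (-0.16). Snap91 ranged from -0.51 without control 3 (unadjusted p = 0.0192) to -0.13 without control 5 (unadjusted p = 0.552). Over these 3 lists, 0 genes passed an unadjusted p under 0.001.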

How the data were processed

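Hippocampal RNA of 6 mutants and 5 controls was hybridised to 12 Illumina MouseWG-6 arrays. The authors deposited an intensity per probe, with no background subtracted, and beside it a detection p-value. The authors also deposited log2 values of the same arrays; per the methods these followed BeadArray quality control, background subtraction and quantile normalization, and the submitters' processing notes name limma. The form of that subtraction is not given in the sources used here. Array medians of the deposited log2 values were 6.60 to 6.64, and these values served as an alternative.

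Of 46089 lines, 954 without a probe name were treated as control beads. The other 45135 probes were analysed in R 4.3.3 with limma 3.58.1. Background was corrected by normexp from the detection p-values (offset 16, fitted on all lines), followed by log2 and quantile normalization. The 2 arrays of mutant 6 (r = 0.992) were averaged. Models with genotype alone (lmFit, eBayes) were fitted to every probe over 11 animals, whose number limits the precision. The steps were tested on simulated data. Single probes also had a two-sided exact permutation test of the difference of means over all assignments of the animals, with the smaller tail doubled. For a probe not detected in any animal of a genotype, a fold was computed against that genotype's mean. Its signal was first raised on each array to at least the lowest one detected there. Signals of the other genotype were left as read, so the fold is no strict bound where some of those were undetected.

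The annotation gave 34773 probes 1 symbol, 18 several and 10344 none; all 64 member symbols were found in the RefSeq table (GRCm38.p6). Named were member probes at an unadjusted p under 0.05, the 2 of smallest p in each family among those above background, the brightest probe of core release genes, the 5 of largest SD, non-overlapping probes, the probes of a gene with opposite signs of which 1 had an unadjusted p under 0.05, and the 3 of smallest p in each pathway list. The members and lists were chosen with earlier results of these data known. Alternatives were the deposited values, no background correction, cyclic loess, a detection filter, single arrays of mutant 6, the number series, a replicate block, a thalamus covariate, a variance trend and omission of each animal.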

Additional observations from a re-analysis of the deposited data

Results flagged for a closer look

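In 100 groups of animals, 1 probe and 1 genotype each, 17 animals stood apart from their group by Dixon's test, which flags about 1 group in 20 by chance. Each animal's log2 signal is given with the nearest other animal of its genotype. Among core genes, mutant 3 was low for Cplx1 (13.89, next 14.07), control 4 was low for Syp (13.52, next 13.82) and Stx1a (10.65, next 11.38), and mutant 6 was high for Stx1a (12.70, next 11.56). Control 5 was low for Sytl2 (9.09, next 9.50), mutant 4 was low for Snap47 (8.92, next 9.38) and Sv2b (10.85, next 11.84), and control 4 was low for Sv2a (11.90, next 12.36). Control 1 was low for the Syn3 probe ILMN_1223010 (4.53, next 6.16).

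The others concern probes near background. Mutant 4 was high for the Syn3 probes ILMN_1247037 (5.03, next 4.50) and ILMN_2578508 (4.65, next 4.20). Mutant 1 was high for Cplx4 (5.05, next 4.46) and Stxbp5l (5.07, next 4.58). Control 2 was high for Snap25 (4.49, next 4.28), and mutant 3 for Unc13a (4.93, next 4.50). For Syt2, mutant 2 (4.72, next 4.30) and control 5 (4.52, next 4.25) were high.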

How the results depend on the processing

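The number of member probes at an unadjusted p under 0.05 was 3. It was 1 with the detection filter (all probes 3.86%), 1 within the 200s (4.08%) and 6 with the thalamus covariate (4.99%). When 1 animal was left out it was 2 to 9 (3.47% to 4.69%). Under the other alternatives, except those below, it was 2 or 3 (3.77% to 4.54%). Within the 300s it was 5 (5.94%), in a fit whose single control is assumed to vary like the mutants. At an unadjusted p under 0.001 it was 0, and 1 with the thalamus covariate, where the share of all probes is not given here. At an adjusted p under 0.05 it was 0 under every alternative run. With the replicate number as a block, which takes mutant 6, without a same-numbered control, out of the comparison, it was 10, against 5.78% of all probes; deviations of same-numbered animals correlated at 0.27, -0.05, -0.05, 0.56 and 0.55, so the numbers were not taken as pairs, and under this replicate block Syt1 was -0.017, as it was without mutant 6 alone.

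Signs turned as follows. With the series as a block, Syn3 ILMN_1223010 was -0.0089, Syn3 ILMN_2778216 -0.033, Syt7 0.027 and Rrn3 ILMN_2460879 0.0024. Within the 200s, Cplx1 was -0.041, Cplx2 0.11, Rims1 ILMN_3082271 0.064, Rims3 -0.24, Snap47 0.0097, Syn3 ILMN_2778216 -0.10, Unc13a 0.030 and Rrn3 ILMN_2460879 0.0030. Within the 300s, with 1 control, Rims2 was 0.43, Snap25 0.051, Syn3 ILMN_1223010 -0.12, ILMN_1247037 -0.15 and ILMN_2578508 0.016, Syt2 -0.28, Syt7 0.18, Syt9 1.11, Stx3 0.56, Rrn3 ILMN_2460879 0.0010, Sv2c 0.11 and Cltc 0.071. With the thalamus covariate Syt9 was 0.043. Leaving out 1 animal gave -0.29 to 0.41 for Syt9, -0.089 to 0.075 for Syt7, -0.031 to 0.058 for Syt1, -0.094 to 0.061 for Cplx2, -0.026 to 0.098 for Cplx1, -0.022 to 0.15 for Cplx4, -0.079 to 0.0066 for Snap25, -0.035 to 0.10 for Syt2 and -0.076 to 0.027 for Rrn3 ILMN_2460879. For Syn3 it gave -0.20 to 0.33 (ILMN_1223010), -0.0046 to 0.22 (ILMN_1226682), -0.0095 to 0.18 (ILMN_1229220) and -0.017 to 0.18 (ILMN_1247037). The cause was not tested.

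Correlations with the thalamus markers were not run because the animals fell into separate clusters. The size of a difference near background varied with the processing. The Syn3 probe ILMN_2993083 differed by 0.12 under the deposited values and by 0.12 with no background correction. It differed by 0.38 in the main fit and by 0.38 with cyclic loess.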
